A study of Mus musculus with 11 samples.

Results

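The 7 genes that encode the subunits of the NMDA receptor (Grin1, Grin2a, Grin2b, Grin2c, Grin2d, Grin3a and Grin3b) were followed in RNA-Seq counts of cerebellar granule cell progenitors (GCps) with and without the chromatin remodeler CHD7. They were chosen by name as the complete Grin family, and are 7 of the 38924 genes counted. GCps were prepared from C57Bl/6J mice at P7. The control group is labelled as wild type with the genotype Chd7flox/+, although the notes on RNA extraction describe it as carrying 2 floxed alleles (Chd7f/f), and the cko group is labelled Math1cre;Chd7flox/flox. The Math1-Cre transgene acts in the granule cell lineage and leaves posterior lobules largely unrecombined, and lobules IX and X were removed before cells were dissociated and enriched on Percoll. Cerebella were pooled by genotype, and each genotype had 2 libraries, whose values are given below with replicate 1 before replicate 2. The sources do not say whether the 2 libraries of a genotype came from separate pools of animals, so that p-values measure the spread between these libraries. Sex-linked RNA differed between the 2 cko libraries, so they are not repeats of 1 RNA, and for control this is not known.

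Total counts ranged from 61836588 to 77346481 per library, and mitochondrial genes took from 1.86% to 3.80% of them. Chd7 itself was at 319 to 322 CPM (read counts scaled to library size) in control and 355 to 392 CPM in cko libraries (adjusted p = 0.418 in the edgeR test used throughout), and since counts are summed over the whole gene this does not check the deletion of the floxed exons. The 7 markers of the granule cell lineage summed to 4336 and 4276 CPM in control and 3391 and 4083 CPM in cko libraries, with 0 of 7 called. Of these markers, 4 had a log2 fold change below 0 and 3 above, and DESeq2 called 1 (5.60% of all genes it tested). An unadjusted p under 0.05 was found for 2 markers (13.6% of all genes), both lower in cko. Neurod1 was at 1051 and 999 CPM in control and 475 and 780 CPM in cko libraries. Pax6 was at 589 and 552 CPM in control and 460 and 468 CPM in cko libraries. The cko replicate 1 library stood apart in sex-linked RNA: the inactive X transcript Xist was at 793 CPM there and at most 0.548 CPM in the others, and the Y-linked Ddx3y was at 0 CPM there and at least 63.7 CPM in the others. Values without this library are given below for the results that rest on it.

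NMDA receptors are glutamate-gated cation channels that pass calcium when glutamate and a co-agonist are bound while the membrane is depolarized. Each receptor needs GluN1, the product of Grin1, which binds glycine or D-serine, and combines it with glutamate-binding GluN2 subunits (Grin2a to Grin2d) that set conductance, magnesium block and kinetics, or with glycine-binding GluN3 subunits (Grin3a, Grin3b). Migrating and newly born granule cells of the cerebellum use GluN2B-containing receptors, and as granule neurons mature GluN2B gives way to GluN2A and GluN2C, the latter being largely restricted to the cerebellum.

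RefSeq promoter windows of GRCm38.p6 (mm10), running from 250 bases before to 50 bases after a gene's start, were found for 4 of the 7 genes (Grin1, Grin2c, Grin2d and Grin3b). Grin2c is shown because it had the largest difference of the family between genotypes and Grin1 because it encodes the subunit that every receptor needs. Each is printed 5′ to 3′ on the gene's strand, the minus strand for both. Capitals mark the GC box GGGCGG, which Sp1-type factors bind, or the E-box CANNTG, which is bound by basic helix-loop-helix factors such as Atoh1 (Math1) and Neurod1, on either strand. The Grin2c stretch stops where the RefSeq transcript that begins furthest upstream starts. It is followed by the 29 bases next to it that hold its GC boxes. These 29 bases lie before the start used for the window but within the extent of that transcript.
Grin2c, chr11:115267298-115267493: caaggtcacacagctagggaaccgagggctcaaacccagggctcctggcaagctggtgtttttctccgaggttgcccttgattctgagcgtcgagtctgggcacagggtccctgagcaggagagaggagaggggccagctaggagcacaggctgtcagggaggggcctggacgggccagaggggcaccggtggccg
Grin2c, chr11:115267269-115267297: gctgGGGCGGgccgGGGCGGGGCGGaggc
Grin1, chr2:25319188-25319437: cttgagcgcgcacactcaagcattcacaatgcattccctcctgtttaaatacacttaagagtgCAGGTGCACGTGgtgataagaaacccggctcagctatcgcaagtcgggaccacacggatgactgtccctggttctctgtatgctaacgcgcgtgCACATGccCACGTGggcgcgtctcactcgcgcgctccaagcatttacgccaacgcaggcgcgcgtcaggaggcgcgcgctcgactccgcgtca

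Over the whole 300-base windows, Grin2c held 3 GC boxes and 0 E-boxes, while Grin1 held 1 GC box and 4 E-boxes. Grin2d held 0 GC boxes and 1 E-box, and Grin3b held 0 GC boxes and 2 E-boxes. Of all 32851 windows, 35.66% held at least 1 GC box and 72.31% at least 1 E-box, so that neither motif is rare. The Grin2c window was rich in G and C (70%, with 90.42% of windows lower), against 60.67% for Grin1, 56% for Grin2d, 48.33% for Grin3b and a median of 52.67% over all windows. The cAMP response element TGACGTCA (in 1.79% of windows), the palindromic NFI site (TGGC and GCCA with 5 bases between, 0.8067%), the ETS core CCGGAA (14.9%) and the MEF2-like site (CTA and TAG with 4 bases between, 3.686%) had 0 matches in all 4 windows. A match is only these letters, not a bound site.

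The comparison of cko with control asks how RNA levels of the receptor's subunits differ when CHD7 is lost from GCps. All 7 genes passed the filter on low counts, and 0 of 7 passed edgeR's quasi-likelihood test at an adjusted p of 0.05, where 1.58% of the 16436 genes tested passed. Grin2a, Grin2b and Grin2c had an unadjusted p under 0.05, 3 of 7 where 13.6% of all genes did. DESeq2 with its defaults called these 3 genes (Grin2a and Grin2c higher, Grin2b lower), against 5.60% of the genes it tested, and edgeR's likelihood ratio test called Grin2a and Grin2c, against 4.11%. A fitted fold of at least 2 was found for Grin2a and Grin2c, 2 of 7 where 4.27% of all genes had one in either direction. The median log2 fold change of the 7 genes was -0.02 and that of all tested genes -0.000565. The libraries of the 2 genotypes did not overlap for 4 of 7 genes (Grin2a and Grin2c above control in cko, Grin2b and Grin3b below), where 43.9% of all genes did not overlap (22.7% above and 21.2% below), so that the separation alone is near the background. The plot of CPM by library shows the 7 genes side by side.

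**Figure D1:**
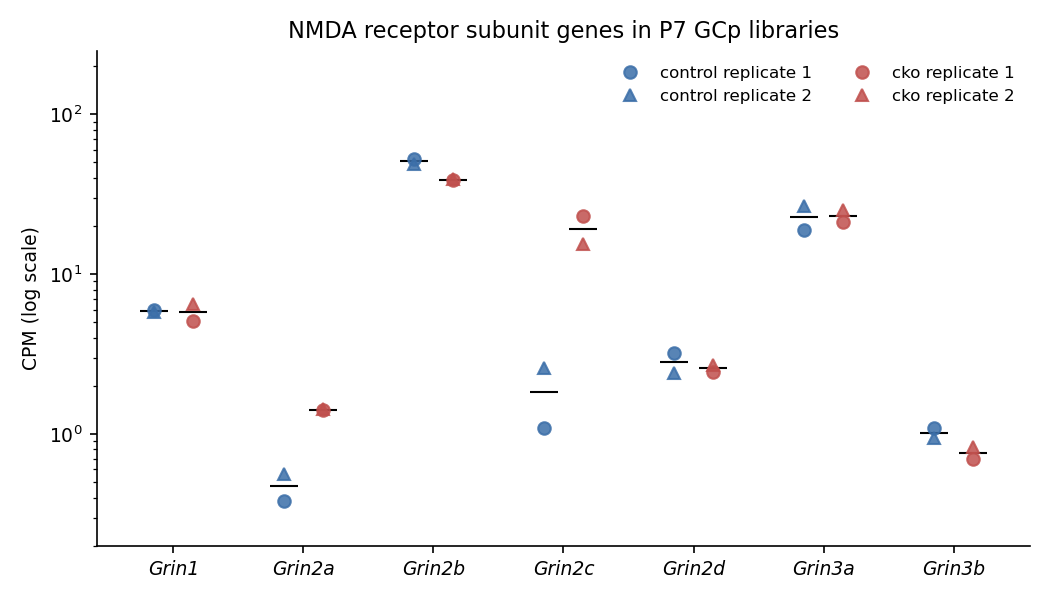
Level of each NMDA receptor subunit gene in CPM (log axis) in the 2 control and 2 cko libraries, each point 1 library and each line the mean. Grin2c is at 1.10 and 2.59 CPM in control and 23.0 and 15.5 CPM in cko libraries, whereas the points of Grin1, Grin2d and Grin3a overlap.

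Grin2c (ENSMUSG00000020734) encodes GluN2C, the GluN2 subunit of mature granule neurons, whose receptors have a low conductance and a weak magnesium block. It lies on the minus strand of chromosome 11 of GRCm38 from 115249169 to 115267243, with 5037 bp of exons. It had 84 and 156 counts in the control libraries and 1777 and 952 counts in the cko libraries, or 1.10 and 2.59 CPM in control and 23.0 and 15.5 CPM in cko. Both cko libraries were far above both control libraries, and replicates also differed from each other, 2.36-fold within control and 1.49-fold within cko. The fitted fold was 10.6 (95% interval 4.42 to 25.3), a log2 fold change of 3.40 (standard error 0.48) and its adjusted p of 0.0566 was just outside the threshold. Over the alternatives the adjusted p ran from 9.04e-09 to 0.334 and the direction was the same in 13 of 13. DESeq2 with its older prior, which shrinks fold changes towards 0, gave log2 fold changes of 0.89 for Grin2c and 0.68 for Grin2a. Leaving out control replicate 1 gave a log2 fold change of 2.89 and leaving out control replicate 2 one of 4.13. With 1 control library left, the 2.36-fold spread within control does not enter the test, so no p-value is given for these 2 fits. Without cko replicate 1, the library that stood apart, the log2 fold change was 3.10 with an adjusted p of 0.161.

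Among all tested genes, 29 had a higher log2 fold change than Grin2c, of which 5 were called and 1 had an average expression at least as high. A fold of 8 or more in either direction was fitted for 60 genes (0.365% of those tested), and 23 of these were called. Grin2c was thus among the largest fitted differences of the comparison, though it did not pass the quasi-likelihood test. In bulk RNA, more cells of a type and more RNA per cell cannot be told apart.

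**Figure D2:**
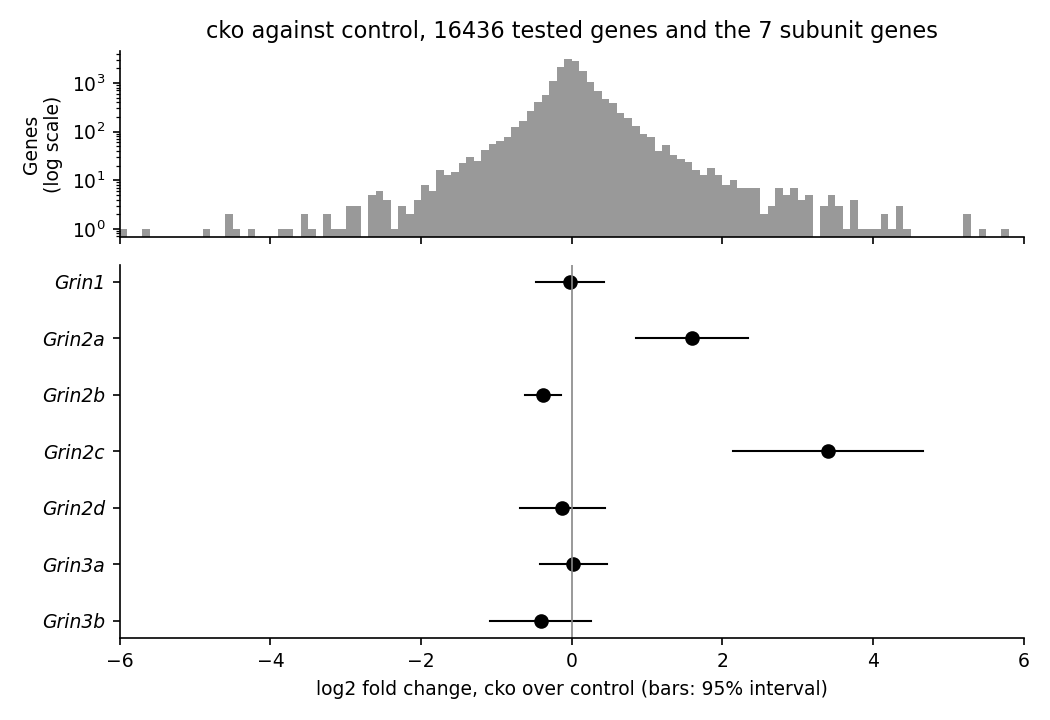
Log2 fold change (cko over control) of each subunit gene with its 95% interval, below a histogram of the log2 fold changes of all tested genes (number of genes, log axis) on the same axis. Values beyond the axis are not drawn. Grin2c (3.40) and Grin2a (1.60) lie far to the right of the bulk of genes, and the intervals of Grin1, Grin2d, Grin3a and Grin3b include 0.

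Grin2a (ENSMUSG00000059003) encodes GluN2A, which gives receptors fast deactivation and replaces GluN2B at maturing synapses. It spans 9567898 to 9995560 on the minus strand of chromosome 16. It was the lowest of the family per length, with 29 and 34 counts in control and 109 and 88 counts in cko replicates 1 and 2. In CPM this was 0.379 and 0.563 in control and 1.41 and 1.43 in cko. Both cko libraries were above both control libraries by more than counting error, since the 95% Poisson intervals reached 41.6 and 47.5 counts in control and started at 89.5 and 70.6 counts in cko (these cover counting error only). The fitted fold was 3.03 (95% interval 1.81 to 5.08; log2 fold change 1.60, standard error 0.31), with an adjusted p of 0.0642. Leaving out single libraries gave log2 fold changes from 1.33 to 1.90 with adjusted p from 0.0770 to 0.289, and over all alternatives the adjusted p ran from 0.00218 to 0.289.

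Grin2b (ENSMUSG00000030209), which encodes the GluN2B subunit of embryonic and newly born neurons, was the most highly counted of the 7 genes. It lies on the minus strand of chromosome 6 from 135713233 to 136173511. It had 4045 and 2933 counts in control and 2978 and 2409 counts in cko replicates 1 and 2, which is 52.8 and 48.6 CPM in control and 38.6 and 39.2 CPM in cko. The cko libraries were close to each other and below both control libraries. The level in control was 1.30-fold that in cko (log2 fold change -0.38, standard error 0.10, 95% interval -0.63 to -0.14), with an adjusted p of 0.144 (0.0362 to 0.729 over the alternatives).

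Grin2d (ENSMUSG00000002771) encodes GluN2D, a subunit of early development and of interneurons with very slow deactivation. It was at 3.21 and 2.40 CPM in control and 2.45 and 2.72 CPM in cko libraries, and the groups overlapped (log2 fold change -0.12, 95% interval -0.68 to 0.44). Of the 4 GluN2 genes, Grin2d was thus the one whose interval included 0.

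Grin1 (ENSMUSG00000026959), the gene of the subunit that all these receptors share, was at 5.95 and 5.83 CPM in control and 5.07 and 6.54 CPM in cko libraries. The cko libraries lay on either side of the control libraries, with a log2 fold change of -0.02 (standard error 0.19, 95% interval -0.48 to 0.43) and an adjusted p of 0.981. At this precision a difference of up to 1.35-fold upwards lies within the interval. Grin1os, an antisense gene, shares 13.5% of the exonic length of Grin1, and without a stated strand setting reads from both cannot be told apart there.

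Grin3a (ENSMUSG00000039579) encodes GluN3A, a juvenile subunit that lowers calcium passage. Its 19.0 and 26.8 CPM in control enclosed the 21.2 and 25.2 CPM in cko libraries (log2 fold change 0.02, 95% interval -0.43 to 0.47). Grin3b (ENSMUSG00000035745), best known from motor neurons, was at 1.08 and 0.945 CPM in control and 0.700 and 0.829 CPM in cko libraries, which did not overlap. Its log2 fold change was -0.41 (95% interval -1.08 to 0.26; adjusted p = 0.631). Grin3b shares 32.1% of its exonic length with Tmem259 on the opposite strand, so that its count is uncertain. Tmem259 had a log2 fold change of -0.06.

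To compare levels between genes, CPM were divided by the length of the union of a gene's exons in GENCODE vM21 (CPM per kb). Counting used the gene models of Ensembl 75, which may differ in length. In control GCps Grin2b (2.04 ± 0.120, SD, n = 2) and Grin3a (1.87 ± 0.449) were highest and overlapped each other, and Grin1 (0.608 ± 0.00872) followed. Grin2d (0.422 ± 0.0859), Grin2c (0.365 ± 0.209) and Grin3b (0.308 ± 0.0298) came next, each overlapping its neighbour in that order, and Grin2a (0.0263 ± 0.00729) was last. In cko GCps the order began with Grin2c (3.82 ± 1.06 CPM per kb, n = 2), followed by Grin3a (1.89 ± 0.231), Grin2b (1.57 ± 0.0157), Grin1 (0.598 ± 0.107), Grin2d (0.388 ± 0.0281), Grin3b (0.232 ± 0.0277) and Grin2a (0.0793 ± 0.000686), and no neighbours in it overlapped. The upper places depend on the length used: per kb of the longest transcript Grin3a (3.06 ± 0.735) was above Grin2b (2.11 ± 0.123) in control, and in cko the libraries of Grin2c (4.71 and 3.16) and Grin3a (2.83 and 3.37) overlapped.

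The 4 GluN2 genes were also taken as shares of their summed level per length within each library, a measure that library scaling does not affect. Grin2c made up 7.65% and 17.9% of this sum in the control libraries and 69.6% and 59.8% in the cko libraries, a difference of 51.9 percentage points. Grin2b made up 74.7% and 68.4% in control and 23.6% and 30.7% in cko libraries. By these lengths, Grin2b was the larger part of the GluN2 RNA in both control libraries and Grin2c in both cko libraries. Grin2b has 24842 bp of exons in GENCODE vM21 and Grin2c 5037 bp. Whether the counted Ensembl 75 models are as long was not tested.

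Grin2d took 16.9% and 12.6% in control and 5.60% and 7.94% in cko, and Grin2a 0.742% and 1.10% in control and 1.20% and 1.55% in cko. The ratio of Grin2c to Grin2b was 0.102 and 0.262 in control and 2.94 and 1.95 in cko libraries, a log2 difference of 3.87. The log2 ratio of Grin2a to Grin2b was -6.65 and -5.96 in control and -4.30 and -4.30 in cko, a difference of 2.00. With 2 against 2 libraries the exact permutation test (two-sided) gave p = 0.333 for each of these, which is the smallest it can give, so they stand as descriptions. Without division by length the difference in the Grin2c share was 27.4 percentage points, and Grin2b stayed the larger part in all 4 libraries (Grin2c at 35.2% and 26.3% in cko).

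**Figure D3:**
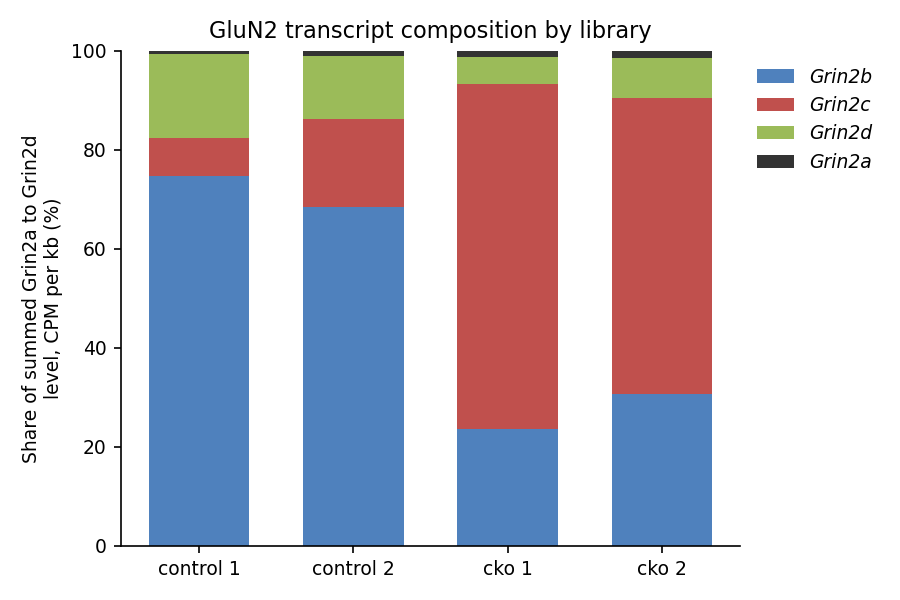
Share of each GluN2 gene in the summed level per length (CPM per kb) of Grin2a to Grin2d, in percent, 1 stacked bar per library. Grin2b takes 74.7% and 68.4% of the control bars, and Grin2c 69.6% and 59.8% of the cko bars. Lengths are those of GENCODE vM21 exons, whereas counting used Ensembl 75.

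The summed GluN2 level was 2.85 and 2.86 CPM per kb in control and 6.58 and 5.14 CPM per kb in cko libraries, whereas the Grin1 libraries overlapped. The ratio of Grin1 to this sum was 0.216 and 0.210 in control and 0.0795 and 0.131 in cko libraries. Both differences depend on the division by length. Without it the 4 GluN2 genes summed to 57.5 and 54.2 CPM in control and 65.5 and 58.8 CPM in cko, and the ratio of Grin1 to this sum was 0.104 and 0.108 in control and 0.0774 and 0.111 in cko, where the genotypes overlapped. These are RNA levels and say nothing of how many subunits reached the membrane.

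Neighbours were taken as the 20 genes that share exonic bases with a member or lie nearest outside it on either side. Genes that overlap a member's span without shared exonic bases were left out. Of the 20 genes, 9 were tested and 0 were called, against 1.58% of all genes. An unadjusted p under 0.05 was found for 0 of them, and 0 were called by DESeq2 or the likelihood ratio test. Beside Grin2c, the neighbours Tmem104, 2146 bp away, and Fdxr, 781 bp away, had log2 fold changes of 0.10 (adjusted p = 0.850) and 0.18 (adjusted p = 0.713). The difference at Grin2c was thus not seen in the genes on either side of it. The other tested neighbours were Grin1os (log2 fold change -0.78, on 1 to 20 counts per library), Tmem259, AA543186, Grwd1, Syngr4, Rnf20 and Wdr18.

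Genes with the most similar pattern were sought for each member among 12315 genes, by the Euclidean distance of log2 CPM centred on the gene's mean over the 4 libraries. As genotype dominates such a pattern in 4 libraries, this is a description. Nearest to Grin2c were Thsd7b (distance 0.885), Sdk2 (0.898), an adhesion molecule of neurons, and Clic6 (1.31), a chloride channel protein, all called higher with log2 fold changes of 2.81, 2.76 and 2.85. The call of Thsd7b is lost without control replicate 1 (adjusted p = 0.0567) or control replicate 2 (adjusted p = 0.0878). Nearest to Grin2a were Megf11 (0.184), Syt13 (0.208), a synaptotagmin, and Loxl1 (0.220), a lysyl oxidase, called higher with log2 fold changes of 1.36, 1.45 and 1.35. The call of Megf11 is lost without cko replicate 1 (adjusted p = 0.0702) or cko replicate 2 (adjusted p = 0.0521).

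Nearest to Grin2b were Stmn3 (0.0163), a stathmin of neurons, Dnpep (0.0228), an aspartyl aminopeptidase, and Kcnk2 (0.0350), a background potassium channel, of which 0 were called. Those nearest to Grin1 were Amigo3, Atg10 and F8a. Grin2d was most like Zfp839, Stard3nl and 5330438D12Rik, Grin3a most like Zfp942, Rfx2 and Ppp4r3a, and Grin3b most like Kif5a, Akap12 and 9330159F19Rik.

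Of the scaffold genes that hold NMDA receptors at the synapse, 1 of 21 tested rose (0.809% of all genes did) and 1 fell (0.773%). The median log2 fold change was -0.17, with 14 genes below 0 and 7 above. Below control in both cko libraries were 11 genes (21.2% of all genes were), and 4 were above in both (22.7%). An unadjusted p under 0.05 was found for 6 genes (13.6% over all genes). Shank2, a master scaffold of the postsynaptic density, rose from 20.9 and 20.6 CPM in control to 39.8 and 35.9 CPM in cko (adjusted p = 0.0242), a log2 fold change of 0.87 with a standard error of 0.11. The call is lost without control replicate 2 (adjusted p = 0.134). Dlg2, which encodes PSD-93, a membrane-associated guanylate kinase that binds GluN2 tails, fell from 34.5 and 34.9 CPM to 22.0 and 20.7 CPM (adjusted p = 0.0369), a log2 fold change of -0.70 with a standard error of 0.11. The call is lost without control replicate 1 (adjusted p = 0.0874) or control replicate 2 (adjusted p = 0.192). The genotypes did not overlap for either gene, as for 43.9% of all genes. DESeq2 called 5 genes of this list, where it called 5.60% of all genes it tested.

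Of the calcium signaling genes below the receptor, 1 of 18 tested rose (0.809% of all genes did) and 0 fell. The list had 6 genes at an unadjusted p under 0.05 (13.6% over all genes) and a median of -0.19. Log2 fold changes were below 0 for 14 genes and above 0 for 4. Below control in both cko libraries were 11 genes (21.2% of all genes were), and 3 were above in both (22.7%). DESeq2 called 4 of its genes (5.60% of all genes it tested). Nos1, the neuronal nitric oxide synthase that is tethered to the receptor through PSD-95 proteins, rose from 18.5 and 19.4 CPM in control to 66.5 and 69.5 CPM in cko. Its log2 fold change of 1.85 (standard error 0.10) had an adjusted p of 0.00238, and its replicates lay close together in both genotypes.

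Of the 12 kinases and phosphatases that act on the receptor and the 19 tested genes of glutamate, glycine and D-serine handling, 0 passed edgeR's or DESeq2's test, with 1 and 2 genes at an unadjusted p under 0.05 (13.6% over all genes) and medians of -0.04 and -0.01. The most expressed of them were Csnk2a1, a catalytic subunit of casein kinase 2, at 228.5 and 218.5 CPM in control and 203.3 and 214.8 CPM in cko, and Slc1a3, the glial glutamate transporter GLAST, at 308 and 384 CPM in control and 251 and 270.5 CPM in cko (adjusted p = 0.217).

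Among 19 regulators linked to NMDA subunit genes (transcription factors, neurotrophin and neuregulin signaling), 0 rose and 1 fell (0.773% of all genes did). The list had 8 genes at an unadjusted p under 0.05 (13.6% over all genes) and a median of 0.03. DESeq2 called 4 of its genes (5.60% of all genes it tested). Erbb4, the neuregulin receptor, fell from 147.8 and 149.4 CPM in control to 45.5 and 57.6 CPM in cko (adjusted p = 0.00847), a log2 fold change of -1.53 with a standard error of 0.13.

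Grin2c and Grin2a are genes of mature granule neurons, so other genes of that stage were set beside them. Of 15 tested granule neuron maturation genes 0 rose and 2 fell, where 0.809% of all genes rose and 0.773% fell. The list was mixed, with log2 fold changes above 0 for 9 genes and below 0 for 6, and a median of 0.10. It had 8 genes at an unadjusted p under 0.05 (13.6% over all genes), and DESeq2 called 5 of its genes (5.60% of all genes it tested). Cadps2, which primes the release of neurotrophins, fell from 457.6 and 426.6 CPM to 60.1 and 92.3 CPM (log2 fold change -2.54, adjusted p = 0.0134), and Kcnd2, a subunit of A-type potassium channels, fell from 38.5 and 35.8 CPM to 3.71 and 6.73 CPM (log2 fold change -2.84, adjusted p = 0.0255). Without control replicate 1 or control replicate 2 the adjusted p of Kcnd2 was 0.0698 and 0.0754. Gabra6, the GABA receptor subunit of mature granule neurons, was at 0.104 CPM or less in each library and was not tested.

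Of 14 genes of the precursor state 1 rose (0.809% of all genes did) and 0 fell. The list had 7 genes at an unadjusted p under 0.05 (13.6% over all genes) and a median of 0.28. Log2 fold changes were above 0 for 12 genes and below 0 for 2. Above control in both cko libraries were 10 genes (22.7% of all genes were), and 0 were below in both. DESeq2 called 5 of its genes (5.60% of all genes it tested). Ccnd1, the cyclin D1 gene of proliferating precursors, rose from 148 and 192 CPM in control to 318 and 291 CPM in cko (adjusted p = 0.0474), a log2 fold change of 0.84, and the call is lost when any 1 library is left out (adjusted p from 0.0516 to 0.146).

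**Figure D4:**
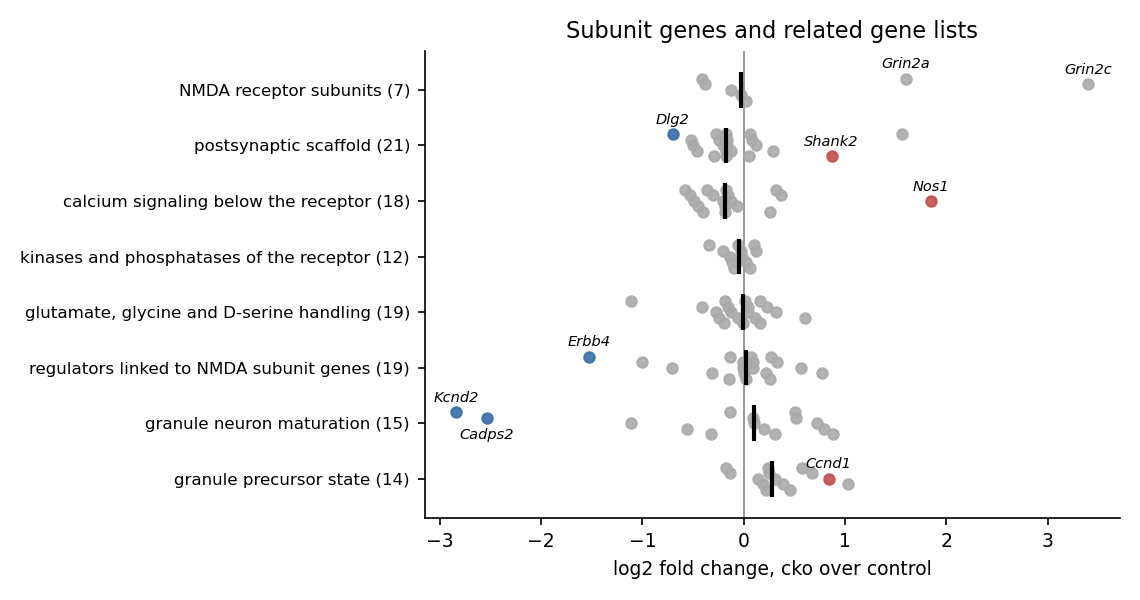
Log2 fold change (cko over control) of each tested gene in the pathway lists, 1 row per list, with called genes colored and named, Grin2c and Grin2a named, and a black line at the list's median. Each list holds at most 2 called genes, and the medians run from -0.19 to 0.28.

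Markers of other cell types that a Percoll fraction can hold were summed beside these results. Those of astrocytes and Bergmann glia summed to 887 and 976 CPM in control and 791 and 799 CPM in cko libraries (0 of 9 called). Log2 fold changes were below 0 for 8 of these 9 markers and above 0 for 1. Below control in both cko libraries lay 5 of them (21.2% of all genes did), and 1 lay above in both (22.7%). Those of GABAergic interneurons summed to 270 and 294 CPM in control and 262 and 293 CPM in cko (0 of 9). The interneuron sum rests most on Lhx1, at 158 and 154 CPM in control and 115 and 131 CPM in cko. It was the 1 marker of 9 with a log2 fold change below 0. The other 8 were above 0, and 6 of 9 lay above control in both cko libraries (22.7% of all genes did). Purkinje cell markers summed to 39.6 and 38.3 CPM in control and 54.5 and 48.9 CPM in cko (0 of 4 tested), with the defining Pcp2 and Ppp1r17 under 1 CPM in each library. Most of the difference in this sum lay in Itpr1, at 28.3 and 27.0 CPM in control and 43.1 and 36.3 CPM in cko. Calb1 and Car8 overlapped between genotypes, and Rora had a log2 fold change of 0.10. Oligodendrocyte lineage markers were at 374 and 335 CPM in control and 409 and 428 CPM in cko (1 of 8 higher, Olig2). Of these, 8 of 8 had a log2 fold change above 0 and 5 lay above control in both cko libraries (22.7% of all genes did). Endothelial markers were at 209 and 174 CPM in control and 284 and 282 CPM in cko, with 0 of 5 called and 5 of 5 above control in both cko libraries, as were 22.7% of all genes. Skeletal muscle markers summed to 5.93 and 3.81 CPM in control and 22.0 and 45.1 CPM in cko, and 3 of 5 were called higher (Myh3, Tnnt3 and Ckm), where 0.809% of all genes were. Markers of unipolar brush cells (68.1 to 82.2 CPM) and microglia (166 to 200 CPM) overlapped between genotypes, with 0 called. DESeq2, which called 5.60% of all genes, called 1 gene each of the astrocyte, Purkinje cell and unipolar brush cell lists, 2 of the oligodendrocyte, 4 of the endothelial and 5 of the muscle list, and 0 of the interneuron and microglia lists. No marker of any list was at 0 counts in all libraries, and the part of these cells in the level of Grin2c and the other subunits was not tested.

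**Figure D5:**
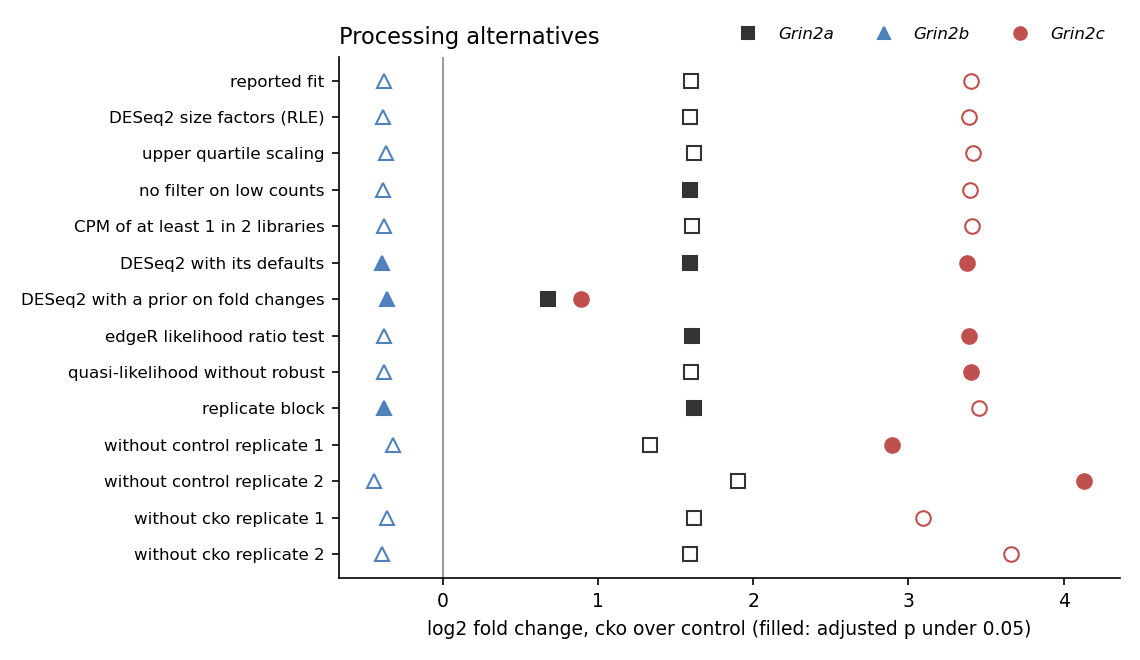
Log2 fold change (cko over control) of Grin2a, Grin2b and Grin2c under the reported analysis and each alternative to it, 1 row per setting, with filled symbols where the adjusted p is under 0.05. The 3 genes keep their direction in 13 of 13 alternatives, and are called in 5, 3 and 6 of them.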

How the data were processed

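RNA-Seq counts of P7 GCps were used for 2 control and 2 cko libraries; the ATAC-Seq and ChIP-Seq samples were not used here. The authors deposited whole-number counts per Ensembl gene, 1 file per library and not normalized. Their tools were Trim Galore 0.4.1 for trimming, TopHat2 2.0.14 for alignment to mm10 and HTSeq 0.6.1p1 for counting on Ensembl 75 (intersection-strict, alignment quality of at least 3). Whether counting used strand is not stated, so overlapping genes are uncertain.

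Names and exons came from GENCODE vM21 (37607 of 38924 genes), promoters from RefSeq. Counts were tested with edgeR 4.0.16 in R 4.3.3 (filterByExpr, TMM, robust quasi-likelihood, two-sided, Benjamini-Hochberg over 16436 genes, threshold 0.05). DESeq2 1.42.0 was an alternative. The standard error is the log2 fold change divided by the square root of F. Steps were tested on simulated counts.

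The members, lists and rules were chosen with earlier results of these data known. The rule named the 7 genes, tested neighbours, the 3 genes nearest in pattern (average log2 CPM of at least 1), and in each list up to 4 called genes or else the most expressed.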

Additional observations from a re-analysis of the deposited data

How the results depend on the processing

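The 260 genes called over all genes became 727 without a filter on low counts, 891 with DESeq2, 884 with DESeq2 and its older prior, 675 with the likelihood ratio test, and from 83 (without control replicate 2) to 602 (without cko replicate 2) when a library was left out, with 181 and 224 in the other cases. The 0 subunit genes called became 1 without the filter, 3 with DESeq2 with or without the prior, 2 with the likelihood ratio test, 1 without the robust setting, and 0 to 1 when a library was left out. In a fit with 1 library in a genotype, that library is assumed to vary like the other genotype's. With the replicate number as a block 1010 genes and 2 subunit genes (Grin2a, adjusted p = 0.0166, and Grin2b, 0.0396, in edgeR's quasi-likelihood test) were called, and Grin2c had a log2 fold change of 3.45 with an adjusted p of 0.334. Same-numbered libraries had a correlation of deviations over genes of 0.187, and both replicate 1 libraries had the lower mitochondrial share of their genotype (2.14% and 1.86%, against 3.41% and 3.80%), but the labels do not say that the number marks a batch, and with 2 pairs the pairing was not settled. The Grin2c share differed by 51.9 percentage points, by 27.4 without division by length, and by 46.8 to 57.0 when a library was left out. Leaving out a library turned the direction of Grin1 (-0.22 to 0.16), Grin2d (-0.31 to 0.10), Grin3a (-0.21 to 0.29) and Grin1os (-3.42 to 0.00984). Beyond leaving out libraries, calls were lost for Cadps2 (adjusted p = 0.0612), Kcnd2 (0.0679), Thsd7b (0.0761) and Sdk2 (0.0617) under the block and Ccnd1 (0.0629) without the robust setting. The cause of these shifts was not tested. Of the subunit genes, Grin3b (51 to 83 counts per library) and Grin2a (29 to 109) rest on the fewest reads.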
